A study of Mus musculus with 8 samples.

Results

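The genes described here are 10 genes of lipid droplets and fatty acid metabolism: *Plin2*, *Hilpda*, *Pnpla2*, *Fasn*, *Acaca*, *Scd1*, *Scd2*, *Cpt1a*, *Acsl4* and *Fabp5*. Each was taken as the row of the expression table that carries its symbol, which gave 10 of 55414 gene rows. All 10 passed the filter on low expression and were among the 13526 genes tested. Cells store surplus fatty acids as triglyceride in lipid droplets, whose surface carries perilipins and proteins that restrain or carry out lipolysis. New fatty acids are built from acetyl-CoA by acetyl-CoA carboxylase and fatty acid synthase, desaturated by stearoyl-CoA desaturases, activated by acyl-CoA synthetases and oxidized in mitochondria after transfer by carnitine palmitoyltransferase 1. Low oxygen is known to favour droplet storage in many tumour cells, and *Plin2* and *Hilpda* are known targets of hypoxia-inducible factors.

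RNA was sequenced from B16F10 cells, a mouse melanoma line, to ask what changes when CypD is removed or added. The gene for CypD is *Ppif*, and its product, a cyclophilin inside mitochondria, makes their permeability transition pore open more readily. WT and CypD KO cells were kept for 24 h at 21% oxygen, and Control and CypD OE cells for 24 h at 1% oxygen, with 2 libraries in each of the 4 groups. CypD KO cells came from puromycin-selected clones after transfection of Cas9 and a guide against *Ppif*, whereas WT cells are labelled as wild type only, so editing and selection differ together between them. Control cells stably carried pcDNA, and the other hypoxic cells pcDNA-CypD, both as clones resistant to G418. How many clones stand behind each group, and whether replicate libraries were grown separately, is not given in the sources used here, so p-values measure a spread that may be technical.

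*Ppif* stood at 50.7 and 49.99 TPM in WT, 10.4 and 12.1 in CypD KO, 44.6 and 42.3 in Control, and 50.3 and 49.3 in the libraries labelled CypD OE. TPM is a relative abundance per transcript length, with the same total in each library. The last group exceeded Control by only 0.19 ± 0.07 (SE) on the log2(TPM + 1) scale, which did not pass the threshold in limma (adjusted p = 0.0794, and 0.0325 or 0.0330 when 1 or the other CypD KO library was left out of the pooled spread). The paper reports western blots that showed CypD protein overexpressed in the selected clones, and lacking in the knockout. *Ppif* RNA alone does not show that increase, so the group is called by its label throughout. Directions drawn from it rest on the label and on those blots, not on RNA. All 7 melanocyte lineage markers were above 1 TPM in every library, whereas the 6 adipocyte markers were all below 1 TPM, with *Adipoq* and *Cidec* at 0. The summed TPM of 5 macrophage markers was 24.1 to 25.2 in CypD KO against 3.67 to 4.48 in WT, 4.68 to 4.90 in Control and 1.15 to 1.98 in the libraries labelled CypD OE. Nearly all of it was *Cd68*, with *Adgre1* at 0 and *Ptprc* at no more than 0.02 TPM, and its part in the results below was not tested. In bulk RNA, fewer cells of a type and less RNA per cell cannot be told apart. From the spacing of low values, the least covered member, *Hilpda*, rested on approximately 140 to 410 fragments per library, and the most covered, *Scd2*, on approximately 18000 to 37000.

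The promoters of 3 members are shown: *Plin2* and *Hilpda*, higher in CypD KO than in WT, and *Fasn*, lower there. All 3 windows shown hold GCGTG, whereas ACGTG is in those of *Plin2* and *Hilpda* only. The first of the 2 *Hilpda* windows, not shown, holds GCGTG but no ACGTG. The sequences are RefSeq windows on GRCm38.p6, from 250 bases before the transcription start to 50 after it. RefSeq windows were found for 7 members (8 windows), and not for *Scd1*, *Scd2* or *Fabp5*. Capitals mark ACGTG or GCGTG on either strand, the core letters of the hypoxia response element, so that CACGC is GCGTG read on the other strand and CACGTG holds ACGTG on both. The windows are chr4:86670010-86670309 (minus strand) for *Plin2*, chr6:29272376-29272675 (plus strand, the second of 2 windows) for *Hilpda*, and chr11:120824498-120824797 (minus strand) for *Fasn*.
Plin2: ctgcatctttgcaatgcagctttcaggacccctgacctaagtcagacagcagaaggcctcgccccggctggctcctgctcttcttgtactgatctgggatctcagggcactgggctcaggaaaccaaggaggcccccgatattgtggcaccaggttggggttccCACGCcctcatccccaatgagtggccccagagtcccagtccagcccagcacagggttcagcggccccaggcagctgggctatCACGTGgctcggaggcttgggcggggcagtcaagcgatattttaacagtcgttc
Hilpda: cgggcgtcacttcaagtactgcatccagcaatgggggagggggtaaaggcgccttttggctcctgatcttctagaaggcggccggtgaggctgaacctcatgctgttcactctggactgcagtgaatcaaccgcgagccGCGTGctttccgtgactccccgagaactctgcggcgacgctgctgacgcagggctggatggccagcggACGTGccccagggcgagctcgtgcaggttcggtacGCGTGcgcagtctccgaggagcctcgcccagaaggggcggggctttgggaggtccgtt
Fasn: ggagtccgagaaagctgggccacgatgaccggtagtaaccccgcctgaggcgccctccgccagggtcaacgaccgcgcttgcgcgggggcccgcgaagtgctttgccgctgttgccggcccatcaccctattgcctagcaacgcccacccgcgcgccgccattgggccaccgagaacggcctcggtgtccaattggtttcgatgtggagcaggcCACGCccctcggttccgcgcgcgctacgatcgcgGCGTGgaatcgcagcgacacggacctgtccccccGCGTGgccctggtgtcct
Counted from the start site, the first bases of these matches lay at -86, -4 and -3 in *Plin2*, at -111, -43 and -8 in *Hilpda*, and at -36, -2 and 33 in *Fasn*. *Acsl4* held GCGTG once, at -94, and the windows of *Pnpla2*, *Acaca* and *Cpt1a* held neither word. The windows were not matched to each gene's main transcript, and other start sites of a gene were not searched. In all, 4 of the 7 matched members held ACGTG or GCGTG. Counted by window these were 5 of 8, beside 43.8% of 32851 windows of all genes, so the letters are common. ACGTG alone was in 2 of the 8 windows (*Plin2* and *Hilpda*), beside 19.6% of all windows. CCAAT, the letters bound by NF-Y, was in 3 of the 8 windows (*Plin2*, *Fasn* and *Cpt1a*), beside 37.4% of all windows. TCACNCCAC, a sterol regulatory element, was in 0 of the 8 windows, beside 1.24% of all windows. These matches are letters in a window and were not tested as binding sites.

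In CypD KO cells the droplet genes *Plin2* and *Hilpda*, the lipase gene *Pnpla2*, the oxidation gene *Cpt1a* and the acyl-CoA synthetase gene *Acsl4* were higher than in WT, while the synthesis genes *Fasn* and *Acaca*, both desaturase genes and *Fabp5* were lower. All 10 members passed the threshold (adjusted p under 0.05, termed a call below), beside 48.4% of all genes tested. The 5 higher members stand beside 30.1% of all genes, and the 5 lower ones beside 18.4%. For each of the 10, the 2 groups' libraries did not overlap, as for 74.0% of all genes. The median size of the difference was 0.57 among the members and 0.30 among all genes on the log2 scale. With the filter at 5 TPM, which every member passed, 10 members were called beside 5836 of 10473 genes. Shares over all genes are thus larger among better expressed genes. Rescaling the libraries by median-of-ratios factors left 9 members past the threshold, 4 higher and 5 lower, and turned the split over all genes from 4066 higher and 2486 lower to 3204 and 3481.

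In the libraries labelled CypD OE, *Plin2*, *Scd2* and *Fabp5* were lower than in Control, and *Pnpla2*, *Fasn*, *Acaca* and *Cpt1a* were higher. These 7 of 10 stand beside 37.4% of all genes tested, the 4 higher ones beside 19.0% and the 3 lower ones beside 18.3%. Libraries of both groups did not overlap for 8 members, beside 68.7% of all genes. *Hilpda*, *Scd1* and *Acsl4* did not pass the threshold. The median size of the difference was 0.33 among the members and 0.24 among all genes. A filter of 5 TPM left 7 members called, beside 4746 of 10473 genes.

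**Figure D1:**
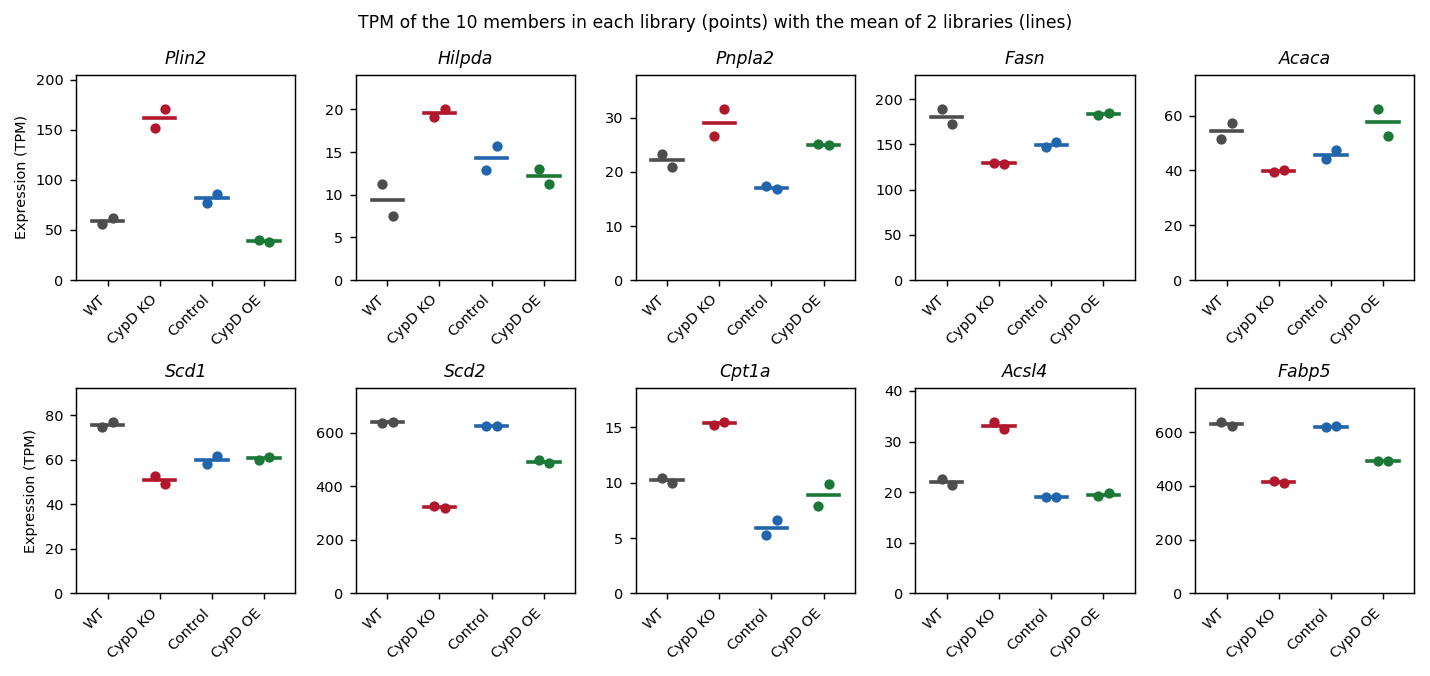
Expression of each member in TPM (vertical axis, from 0) by group (horizontal axis), with a point for each of the 2 libraries and a line for their mean. *Plin2* runs from 38.1 TPM in the libraries labelled CypD OE to 171 in CypD KO, whereas *Scd2* and *Fabp5* are lowest in CypD KO.

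*Plin2* encodes perilipin 2, the coat protein found on droplets of most cells outside fat tissue, and lies on GRCm39 at chr4:86565912-86588459. It stood at 56.3 and 62.2 TPM in WT, 152 and 171 in CypD KO, 76.8 and 86.2 in Control, and 39.7 and 38.1 in the libraries labelled CypD OE. No libraries of different groups overlapped: CypD KO was highest, followed by Control, WT and the libraries labelled CypD OE. In CypD KO the mean was 2.72-fold that of WT, a difference of 1.43 ± 0.08 (SE, limma adjusted p = 2.72e-05), and 95.3% of genes tested differed less. For the CypD OE label the mean was 47.7% of Control, a difference of -1.05 ± 0.08 (limma adjusted p = 0.000174). *Plin2* was the only member for which each of the 3 neighbouring pairs in the order of group means passed the threshold, with differences of 0.98, 0.45 and 0.59 from the top down (limma adjusted p = 0.000153, 0.00986 and 0.00296). The middle step, Control over WT, was lost without WT replicate 1 (0.38, adjusted p = 0.0557) or Control replicate 2 (0.37, 0.0536). Its group means spanned 2.02 on the log2 scale, more than those of 96.5% of genes tested.

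*Hilpda*, the hypoxia-inducible inhibitor of the lipase ATGL, lies at chr6:29272409-29276301. Its values were 11.3 and 7.54 TPM in WT, 19.1 and 20.1 in CypD KO, 12.9 and 15.7 in Control, and 13.0 and 11.3 in the libraries labelled CypD OE. CypD KO was highest in both libraries, Control and the CypD OE label overlapped, and the WT libraries lay far apart from each other for their level. The CypD KO mean was 2.08-fold that of WT, a difference of 1.01 ± 0.18 (limma adjusted p = 0.00362). Between the libraries labelled CypD OE and Control the difference was -0.22, with a 95% interval of -0.65 to 0.21 (limma adjusted p = 0.389). It ranged from -0.35 without Control replicate 1 to -0.13 without CypD OE replicate 2 and -0.09 without Control replicate 2, and passed the threshold in none of these. The order of means was CypD KO, Control, CypD OE label and WT, but no neighbouring pair in it passed the threshold.

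*Pnpla2* encodes ATGL, the lipase that takes the first fatty acid off triglyceride, at chr7:141034404-141040656. It measured 23.4 and 21.0 TPM in WT, 26.6 and 31.7 in CypD KO, 17.3 and 16.8 in Control, and 25.1 and 25.1 in the libraries labelled CypD OE. Control was lowest, and both CypD KO libraries lay above every other library. CypD KO exceeded WT 1.31-fold, by 0.38 ± 0.09 (limma adjusted p = 0.0150). That call was lost without WT replicate 2 (0.30, limma adjusted p = 0.0820), without CypD KO replicate 2 (0.26, adjusted p = 0.0723), in a fit of the comparison's own 4 libraries (adjusted p = 0.0593) and after rescaling (0.27, adjusted p = 0.0609). The libraries labelled CypD OE exceeded Control 1.47-fold, by 0.53 ± 0.09 (limma adjusted p = 0.00505), which held under every alternative. Of its neighbouring pairs only WT over Control passed the threshold. *Plin2* and *Pnpla2* were both higher in CypD KO than in WT, whereas under the CypD OE label *Plin2* was lower and *Pnpla2* higher than in Control. Within a library, the TPM of *Plin2* was 2.41 and 2.97 times that of *Pnpla2* in WT, 5.70 and 5.39 in CypD KO, 4.43 and 5.12 in Control, and 1.58 and 1.52 in the libraries labelled CypD OE.

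The synthesis enzymes were both lower in CypD KO and both higher under the CypD OE label. *Fasn* encodes fatty acid synthase, at chr11:120696672-120715995, and stood at 189 and 172 TPM in WT, 129 and 129 in CypD KO, 147 and 152 in Control, and 183 and 185 in the libraries labelled CypD OE. WT and the libraries labelled CypD OE overlapped at the top, Control lay below them, and CypD KO was lowest. In CypD KO the mean was 71.3% of WT, a difference of -0.48 ± 0.05 (limma adjusted p = 0.000277). For the CypD OE label it was 1.23-fold that of Control, a difference of 0.30 ± 0.05 (limma adjusted p = 0.00375). In the order of means, CypD OE label over WT did not pass the threshold (difference 0.03), while WT over Control and Control over CypD KO did (0.27 and 0.21).

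*Acaca*, for acetyl-CoA carboxylase 1, the enzyme that makes malonyl-CoA for fatty acid synthase, lies on the same chromosome at chr11:84020476-84292477. Its values were 51.4 and 57.3 TPM in WT, 39.3 and 40.2 in CypD KO, 44.0 and 47.3 in Control, and 62.5 and 52.6 in the libraries labelled CypD OE. The order of groups was that of *Fasn*, with the CypD OE label highest and CypD KO lowest, but no neighbouring pair passed the threshold. CypD KO was at 73.1% of WT, a difference of -0.44 ± 0.09 (limma adjusted p = 0.00728). The libraries labelled CypD OE were at 1.26-fold Control, a difference of 0.32 ± 0.09 (limma adjusted p = 0.0321). This last call was lost in 9 of 15 alternatives: without CypD OE replicate 1 (0.20, adjusted p = 0.142), without Control replicate 1 (0.27, 0.141) or 2 (0.37, 0.0635), without CypD KO replicate 1 (0.0567) or 2 (0.0567), without a filter (0.0749), in the comparison's own 4 libraries (0.0797), with a replicate block (0.0529) and without the trend (0.0577). A processed pseudogene, *Gm5182*, matches 99.2% of 6118 bases of *Acaca* but had at most 1.22 TPM. Exons of *Tada2a*, at up to 40.01 TPM, overlap *Acaca* on the opposite strand, and whether reads were counted by strand is not given.

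Stearoyl-CoA desaturases place the first double bond in saturated fatty acids, and *Scd1* (chr19:44382894-44399154) and *Scd2* (chr19:44281613-44295303) are neighbours. *Scd2* was the more abundant in every library. It stood at 636 and 639 TPM in WT, 324 and 317 in CypD KO, 623 and 623 in Control, and 497 and 485 in the libraries labelled CypD OE. Replicates lay close together, with WT and Control at the top and CypD KO at the bottom. CypD KO was at 50.3% of WT, a difference of -0.99 ± 0.03 (limma adjusted p = 1.17e-06), and 89.9% of genes differed less. The libraries labelled CypD OE were at 78.9% of Control, a difference of -0.34 ± 0.03 (limma adjusted p = 0.000123). In the order of means, WT over Control did not pass the threshold (0.03), and the lower steps did (0.34 and 0.61).

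*Scd1* stood at 74.5 and 76.9 TPM in WT, 52.8 and 49.1 in CypD KO, 58.2 and 61.8 in Control, and 60.1 and 61.1 in the libraries labelled CypD OE. WT was highest, CypD KO lowest, and the hypoxic groups overlapped between them. CypD KO was at 67.3% of WT, a difference of -0.56 ± 0.05 (limma adjusted p = 0.000201). For the CypD OE label *Scd1* differed from Control by 0.02, with a 95% interval of -0.11 to 0.14 (limma adjusted p = 0.855), and the sign turned without Control replicate 1 (-0.03). *Scd2* was 8.54 and 8.31 times *Scd1* in WT, 6.15 and 6.46 in CypD KO, 10.7 and 10.1 in Control, and 8.27 and 7.94 in the libraries labelled CypD OE. *Scd3* was at no more than 0.19 TPM and *Scd4* at no more than 0.79 TPM, and neither was tested. Over 623 bases *Scd2* matches *Scd1* at 95.5% identity, so reads from there could be divided between them.

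*Fabp5* encodes a small cytosolic carrier of fatty acids, at chr3:10077602-10081674, and its order of groups was that of *Scd2*. It stood at 637 and 622 TPM in WT, 419.9 and 411 in CypD KO, 619 and 621 in Control, and 494 and 493 in the libraries labelled CypD OE. WT and Control lay close together at the top, the CypD OE label below them and CypD KO lowest. CypD KO was at 66.0% of WT, a difference of -0.60 ± 0.02 (limma adjusted p = 6.92e-06). The libraries labelled CypD OE were at 79.6% of Control, a difference of -0.33 ± 0.02 (limma adjusted p = 0.000133). Processed pseudogenes *Gm6166* (98.3% identity over 409 bases, at most 10.02 TPM) and *Gm14328* (97.3% over 408 bases, at most 3.65 TPM) could take some of its reads.

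*Acsl4*, whose enzyme activates polyunsaturated fatty acids such as arachidonate, is on the X chromosome (chrX:141100840-141173789). Its values were 22.6 and 21.5 TPM in WT, 33.9 and 32.5 in CypD KO, 19.0 and 19.1 in Control, and 19.2 and 19.8 in the libraries labelled CypD OE. CypD KO stood above the other 3 groups. Its mean was 150.3% of WT, a difference of 0.57 ± 0.06 (limma adjusted p = 0.000309). The libraries labelled CypD OE differed from Control by 0.03, with a 95% interval of -0.11 to 0.17 (limma adjusted p = 0.706). In the order of means only CypD KO over WT passed the threshold.

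*Cpt1a* encodes the gate enzyme that passes long-chain fatty acids to mitochondrial oxidation, at chr19:3371853-3437996. It was the lowest of the 10 in Control, with 5.24 and 6.66 TPM, against 10.46 and 9.98 in WT, 15.2 and 15.5 in CypD KO, and 7.87 and 9.91 in the libraries labelled CypD OE. CypD KO was highest and Control lowest in both libraries. CypD KO was at 150.3% of WT, a difference of 0.54 ± 0.14 (limma adjusted p = 0.0154). That call was lost without WT replicate 1 (0.58, adjusted p = 0.0508), WT replicate 2 (0.51, 0.0709), CypD KO replicate 1 (0.55, 0.0648) or CypD KO replicate 2 (0.53, 0.0716). The libraries labelled CypD OE were at 1.49-fold Control, a difference of 0.51 ± 0.14 (limma adjusted p = 0.0258). It was lost without Control replicate 1 (0.36, adjusted p = 0.120) or CypD OE replicate 2 (0.36, 0.130), without a filter (0.0639) and in the comparison's own 4 libraries (0.0970). In the order of means, WT over CypD OE label did not pass the threshold (0.19), while the steps above and below it did.

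Within a library, the TPM of *Fasn* was 18.1 and 17.3 times that of *Cpt1a* in WT, 8.48 and 8.31 in CypD KO, 28.0 and 22.9 in Control, and 23.2 and 18.6 in the libraries labelled CypD OE. CypD KO was lowest in both libraries, Control and the CypD OE label overlapped, and WT lay below both of them.

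**Figure D2:**
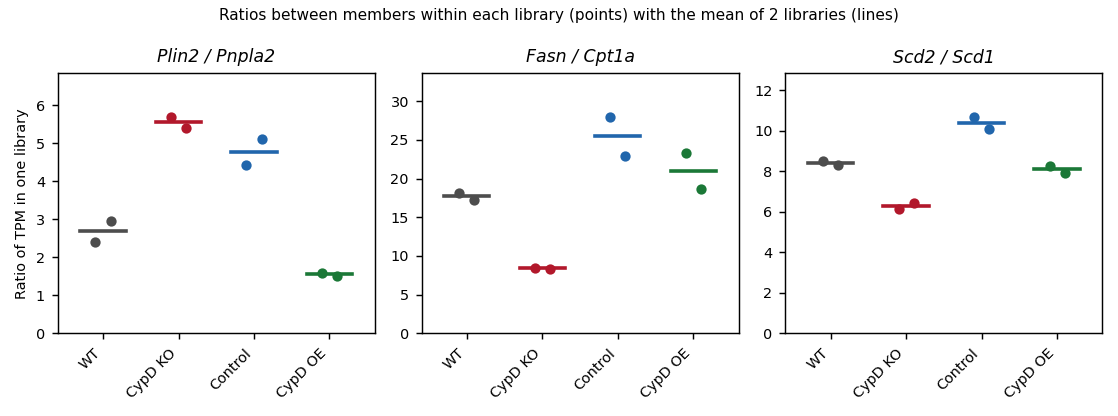
Ratio of the TPM of 2 members within each library (vertical axes, from 0) by group, with a point per library and a line for the mean of 2. *Plin2* over *Pnpla2* is highest in CypD KO (5.70 and 5.39) and *Fasn* over *Cpt1a* lowest there (8.48 and 8.31).

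Set side by side, the 2 comparisons share no library, though they share the pooled spread. Of the 7 members past the threshold in both, 4 went the same way and 3 the opposite way. *Pnpla2* and *Cpt1a* were higher and *Scd2* and *Fabp5* lower in both, while *Plin2*, *Fasn* and *Acaca* went opposite ways. The split rests partly on calls that some alternatives lost: *Pnpla2* in CypD KO, *Acaca* under the CypD OE label and *Cpt1a* in both. Over all genes, 3153 passed in both, and 45.3% of those went the same way. Together the 10 members made up 0.169% to 0.171% of all TPM in WT, 0.121% to 0.122% in CypD KO, 0.162% to 0.165% in Control and 0.138% to 0.140% in the libraries labelled CypD OE.

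**Figure D3:**
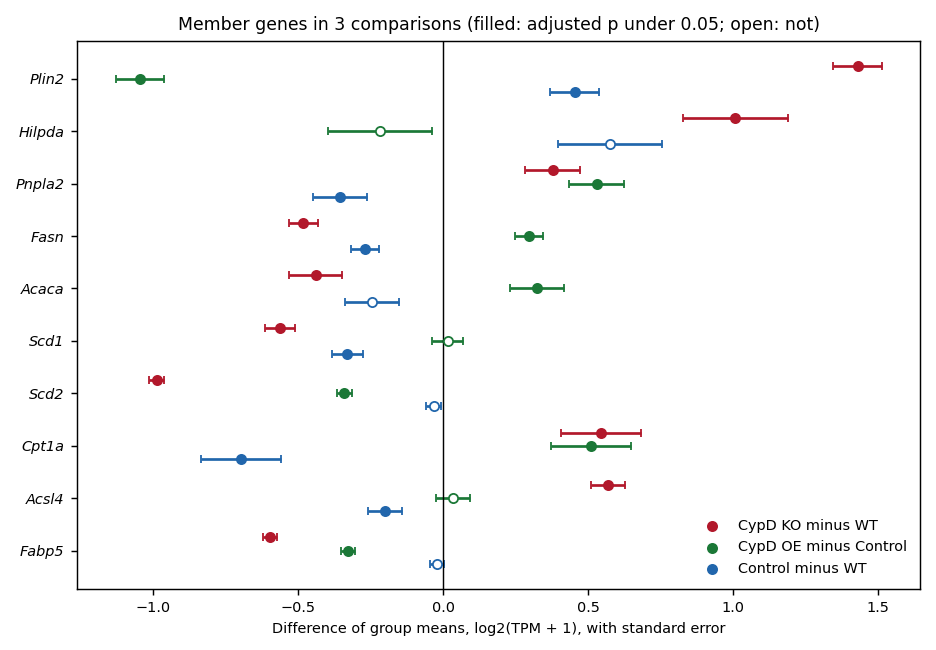
Difference of group means for each member on the log2(TPM + 1) scale (horizontal axis), with bars for the standard error, filled where the limma adjusted p is under 0.05. *Plin2* lies at 1.43 for CypD KO minus WT and -1.05 for the CypD OE label minus Control.

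Control was also set against WT to place the hypoxic groups, although oxygen, vector and selection differ together there and cannot be told apart. This comparison shares WT with the first and Control with the second. *Plin2* was higher in Control (0.45, limma adjusted p = 0.00986), and *Pnpla2* (-0.36, 0.0356), *Fasn* (-0.27, 0.00907), *Scd1* (-0.33, 0.00581), *Cpt1a* (-0.70, 0.0123) and *Acsl4* (-0.20, 0.0478) were lower. These 6 of 10 stand beside 24.2% of all genes, with 12.1% higher and 12.1% lower. Libraries did not overlap for 10 of 10 members, beside 62.0% of all genes. At a filter of 5 TPM, 7 members were called, *Hilpda* among them, beside 3330 of 10473 genes. *Scd1* alone kept its call in all 15 alternatives. *Acsl4* lost it without any 1 of the 8 libraries (limma adjusted p = 0.0683 to 0.178), *Pnpla2* without any 1 of the WT, Control or CypD OE libraries (0.0557 to 0.154), *Cpt1a* without WT replicate 1, WT replicate 2 or Control replicate 1 (0.0508 to 0.0619), and *Fasn* without Control replicate 1 (0.0525). Fewer members passed without any 1 of the WT or Control libraries, and calls over all genes fell in those fits as well. *Hilpda* was at 0.57 ± 0.18 (limma adjusted p = 0.0604), and ranged from 0.31 without WT replicate 2 (adjusted p = 0.204) to 0.84 without WT replicate 1 (adjusted p = 0.0189). *Scd2* (-0.03, adjusted p = 0.381) and *Fabp5* (-0.02, adjusted p = 0.566), the most abundant members, did not pass, nor did *Acaca* (-0.25, adjusted p = 0.1004).

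The other genes of the pathway were read from 6 hand-made lists of 140 genes, of which 139 were in the table, 106 were tested and 96 were no members. List counts and medians below stand beside these values over all genes tested. In CypD KO minus WT, 30.1% were higher and 18.4% lower (median 0.09), or 3204 and 3481 of 13526 when rescaled (median -0.007). For the CypD OE label minus Control, 19.0% were higher and 18.3% lower (median 0.002). In CypD KO against WT, 41 of the 96 were higher and 19 lower, 62.5% beside 48.4% of all genes, but rescaling gave 31 higher and 27 lower. Under the CypD OE label against Control, 10 were higher and 25 lower, 36.5% beside 37.4% of all genes, and 23 in all passed without Control replicate 1. Droplet proteins typical of fat tissue were barely present, with *Plin1* and *Plin4* at no more than 0.21 and 0.15 TPM and *Cidec* at 0. *Plin5*, the perilipin of oxidative tissues such as heart, was at no more than 0.26 TPM.

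Among 9 other droplet coat and regulator genes, 4 were higher and 1 lower in CypD KO (median 0.07, or -0.05 when rescaled). The median over all genes turned sign as well when rescaled, from 0.09 to -0.007. *Plin3*, a perilipin of small droplets, rose from 35.6 and 32.3 TPM in WT to 51.5 and 52.1 (0.60, limma adjusted p = 0.000309). It fell from 39.9 and 40.7 TPM in Control to 28.5 and 26.9 under the CypD OE label (-0.53, limma adjusted p = 0.000896). Control exceeded WT (0.24, limma adjusted p = 0.0311), so the order of groups was that of *Plin2*. *Bscl2*, for the droplet assembly protein seipin, went from 6.87 and 9.52 to 14.7 and 12.8 (0.69, limma adjusted p = 0.0296), a call lost without WT replicate 1 (0.48, 0.148), CypD KO replicate 1 (0.60, 0.139) or CypD KO replicate 2 (0.78, 0.0706). Under the CypD OE label 2 of the 9 were higher and 4 lower (median -0.16). *Aup1*, a protein of droplets and of endoplasmic reticulum quality control, rose from 216 and 234 to 359 and 365 TPM (0.69, limma adjusted p = 6.51e-05). *Hsd17b11*, a droplet-bound dehydrogenase, fell from 17.3 and 19.1 to 11.2 and 11.3 TPM (-0.65, limma adjusted p = 0.00867), a call lost without Control replicate 2 (-0.58, 0.0514).

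Of 6 other lipolysis genes, 5 were higher and 1 lower in CypD KO (median 0.41), which became 3 and 1 after rescaling. The lower one was *Mgll*, for the lipase that ends triglyceride breakdown, which fell from 6.63 and 7.58 TPM in WT to 0.86 and 0.68 in CypD KO (-2.19, limma adjusted p = 2.56e-05). It also fell from 14.9 and 13.6 in Control to 2.16 and 2.44 under the CypD OE label (-2.21, limma adjusted p = 4.13e-05). Both groups with altered *Ppif* labels thus lay below their own reference for *Mgll*. *Abhd6*, another monoacylglycerol lipase, stood at 8.45 and 5.03 in WT and 10.3 and 10.6 in CypD KO (0.60, limma adjusted p = 0.0490), and passed in only 2 of 15 alternatives (0.27, adjusted p = 0.166 without WT replicate 2). Against Control, 0 of the 6 were higher and 2 lower under that label (median -0.18), the second being *Lipa*, for lysosomal acid lipase, from 61.3 and 63.3 to 43.2 and 46.4 TPM (-0.47, limma adjusted p = 0.000489).

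In the triglyceride synthesis list, 5 of 15 genes were higher and 2 lower in CypD KO (median 0.15, or 0.06 when rescaled), and these 7 stand beside 48.4% of all genes. The largest differences were in scarce genes: *Lpin3*, a phosphatidate phosphatase, went from 0.28 and 0 TPM to 1.82 and 1.53 (1.24, limma adjusted p = 0.00313). *Gpat3*, an acyltransferase that starts triglyceride assembly, went from 0.10 and 0.22 to 1.41 and 1.57 (1.10, limma adjusted p = 0.00386). Both diacylglycerol acyltransferase genes, *Dgat1* (0.12) and *Dgat2* (0.13), did not pass. Against Control, 1 was higher and 2 lower under the CypD OE label (median -0.05). *Mogat2*, for a monoacylglycerol acyltransferase, went from 1.11 and 0.80 to 0.16 and 0.10 TPM (-0.79, limma adjusted p = 0.0115), lost without Control replicate 1 (-0.67, 0.0634) or CypD OE replicate 2 (-0.75, 0.0533). *Gpat4*, a relative of *Gpat3*, went from 65.7 and 67.5 to 84.2 and 83.4 (0.33, limma adjusted p = 0.0306), lost without any 1 of the 4 libraries (0.31 to 0.35, adjusted p = 0.0870 to 0.117).

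In the synthesis, elongation and desaturation list, 5 of 23 other genes were higher and 8 lower in CypD KO (median -0.05), or 4 and 12 after rescaling (median -0.16). *Elovl6*, which elongates palmitate to stearate, the substrate of the desaturases, fell from 52.8 and 56.2 TPM in WT to 22.4 and 20.5 (-1.31, limma adjusted p = 9.85e-06). *Acly*, which supplies cytosolic acetyl-CoA, was lower too (-0.38, limma adjusted p = 0.000105), as was *Srebf1*, for a transcription factor of lipid synthesis genes (-0.29, adjusted p = 0.0400). These last 2 were named for their roles after their values had been seen. The 5 higher genes were *Slc25a1* (0.48, limma adjusted p = 0.00131), *Acacb* (0.65, 0.0112), *Elovl7* (0.62, 0.00181), *Elovl4* (0.44, 0.0246) and *Mcat*. All but *Mcat* were likewise named here after their values had been seen. *Mcat*, a mitochondrial fatty acid synthesis enzyme, went from 8.08 and 7.87 to 14.0 and 12.3 TPM (0.65, limma adjusted p = 0.0247), lost without any 1 of the 4 libraries (0.57 to 0.74, adjusted p = 0.0624 to 0.122). Against Control, 3 were higher and 6 lower under the CypD OE label, while the median was 0.04. *Elovl4*, an elongase of very long chains, rose from 5.17 and 6.59 to 10.9 and 10.1 TPM (0.75, limma adjusted p = 0.00380), and *Fads6* went from 0.37 and 0.34 to 1.34 and 1.44 (0.82, adjusted p = 0.00949), lost without CypD OE replicate 2 (0.79).

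For uptake, binding and activation, 7 of 13 other genes were higher and 3 lower in CypD KO (median 0.22), or 6 and 4 after rescaling (median 0.12). The transporter genes *Slc27a1* and *Slc27a6* moved oppositely. *Slc27a1* rose from 2.69 and 2.58 TPM in WT to 12.0 and 13.0 (1.89, limma adjusted p = 3.11e-05). *Slc27a6* fell from 8.96 and 10.4 to 1.99 and 2.12 (-1.80, limma adjusted p = 2.58e-05). Under the CypD OE label 2 were higher and 2 lower (median 0.05). *Fabp3*, a carrier typical of heart and muscle, fell from 6.54 and 8.52 to 0.93 and 1.18 TPM (-2.05, limma adjusted p = 0.00139), the same direction as *Fabp5*. *Acsl1*, a synthetase that activates long-chain fatty acids, rose from 11.1 and 12.1 to 19.9 and 21.5 TPM (0.78, limma adjusted p = 0.000459), whereas *Acsl4* did not pass there. Both *Fabp3* (-1.01, limma adjusted p = 0.0183) and *Acsl1* (0.81, 0.000236) moved the same way in CypD KO against WT.

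Of 30 other oxidation genes, 15 were higher and 4 lower in CypD KO (median 0.26), beside 30.1% and 18.4% of all genes. After rescaling these counts were 9 and 7 (median 0.15). *Cpt1c*, the brain-type relative of *Cpt1a*, rose from 14.9 and 14.6 TPM in WT to 33.3 and 35.7 (1.17, limma adjusted p = 2.85e-05). *Ehhadh*, for a peroxisomal oxidation enzyme, fell from 16.4 and 15.0 to 7.26 and 6.27 (-1.11, limma adjusted p = 0.000254). Under the CypD OE label 2 were higher and 9 lower (median -0.08), beside 19.0% and 18.3% of all genes, while *Cpt1a* was higher. *Ppargc1a*, a coactivator of mitochondrial genes, fell from 52.4 and 49.0 to 9.76 and 9.75 TPM (-2.26, limma adjusted p = 4.67e-06). *Acadm*, for medium-chain acyl-CoA dehydrogenase, fell from 171 and 149 to 109 and 88.1 (-0.70, limma adjusted p = 0.00802).

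**Figure D4:**
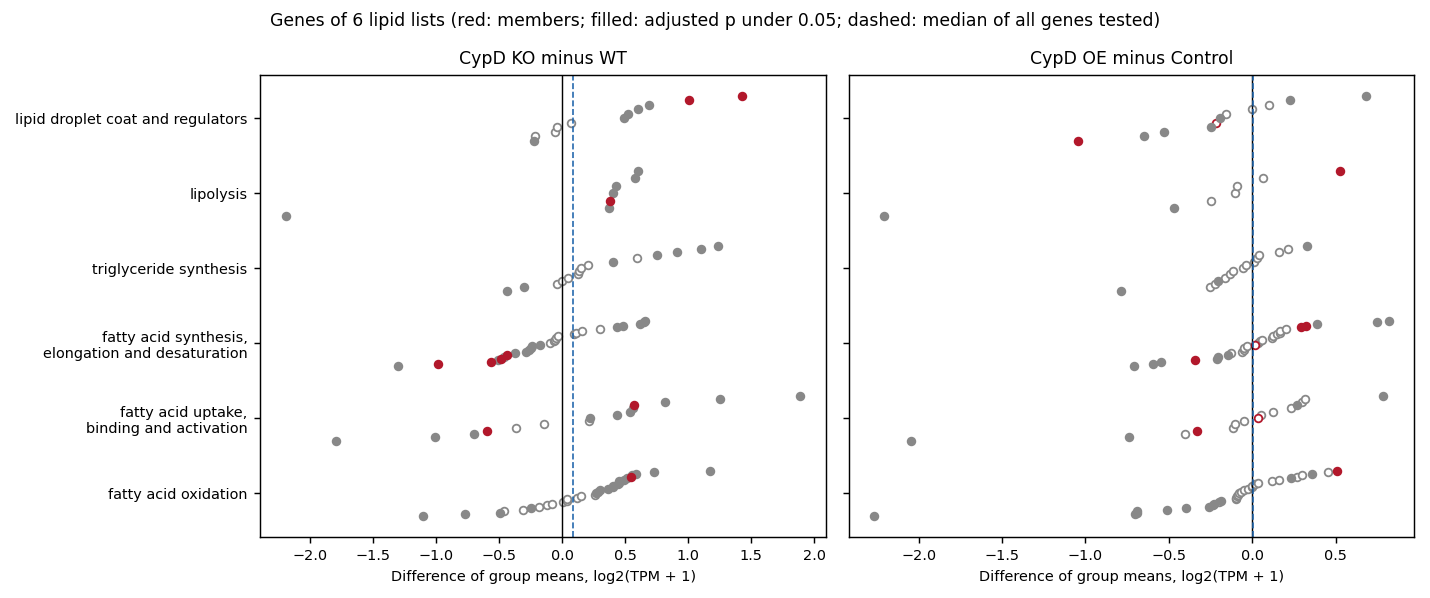
Difference of group means on the log2(TPM + 1) scale (horizontal axes) for every tested gene of the 6 lists (rows), members in red and others in grey, filled where the limma adjusted p is under 0.05, with the median of all genes dashed. In the lipolysis row *Mgll* stands alone at the left in both panels (-2.19 and -2.21).

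For the 3 members with the widest span of group means, the genes most like them were sought among 2413 genes whose group means spanned at least 1. Likeness was Pearson's r of log2(TPM + 1) over the same 8 libraries, which form only 4 groups, so it mainly compares 4 means. For *Plin2* these were *Klf9* (r = 0.997), *Itgav* (0.995) and *Laptm4a* (0.995). *Klf9*, a transcription factor gene, had mean TPM of 2.06 in WT, 7.54 in CypD KO, 3.09 in Control and 1.10 in the libraries labelled CypD OE. For *Cpt1a* they were *Dok1* (0.980), *Sulf2* (0.9746) and *Ddit4l* (0.971), and for *Hilpda* *Phyhd1* (0.953), *2810029C07Rik* (0.947) and *Shb* (0.942).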

How the data were processed

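RNA of 8 B16F10 libraries, 2 in each of 4 groups, was made into total RNA libraries after removal of ribosomal RNA and sequenced in paired-end reads of 150 bases. The authors used Cutadapt 3.4 for trimming, STAR 2.7.8a for alignment to GRCm39 from Ensembl and RSEM 1.3.1 for expression, and deposited TPM for 55414 genes with 2 decimals. The authors tested read counts with DESeq2; counts were not used here. A TPM value moves with the rest of its library, and RSEM splits reads that similar genes share. Depth was estimated from the steps between low values: 1 fragment at 1000 effective bases was worth 0.0815 to 0.0975 TPM, and 83.7% to 86.4% of low values came within 0.15 of whole fragments.

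The filter asked for 1 TPM or more in 2 or more libraries, and the 13526 genes that passed were tested as log2(TPM + 1), which understates changes of low genes, with limma 3.58.1 in R 4.3.3 (lmFit, eBayes with trend), a mean per group and all 8 libraries sharing 1 estimate of the spread. Tests were two-sided, with Benjamini-Hochberg adjustment over all genes tested and a threshold of 0.05. With 2 libraries against 2, an exact permutation test cannot go below 0.333 and was not used. The test was tried on simulated data first. Members and lists were chosen with earlier results of these data known. The genes named are all members, *Ppif*, in each list and comparison the 2 other genes with the largest difference among those past the threshold whose groups did not overlap, and for the 3 members of widest range the 3 genes of highest correlation; genes outside this rule are marked where they appear, besides *Dgat1*, *Dgat2*, *Scd3*, *Scd4*, the marker genes and the untested perilipin and CIDE genes, which were also named after their values were seen. Similar copies were sought with blastn 2.17.0 (at least 95% identity over 150 bases) in GENCODE vM39 transcripts, and 54749 of the 55414 genes were in that annotation. Alternatives were a pseudocount of 0.1, no filter or 5 TPM as its limit, eBayes without trend, rescaling by median-of-ratios factors, a block for the replicate number, a fit of each comparison's own 4 libraries and leaving out each library. Tables were handled in Python 3.11.15.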

Additional observations from a re-analysis of the deposited data

How the results depend on the processing

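Over 15 alternatives, 8 of which left out 1 library, the 30 differences of the members (10 in each of 3 comparisons) gave 450 values: 398 kept their direction and side of the threshold, 49 lost the threshold, 2 passed it newly and 1 changed sign, *Scd1* under the CypD OE label at -0.0277 without Control replicate 1 (-0.0277 to 0.0583 when 1 library was left out). Members past the threshold numbered 8 to 10 in CypD KO minus WT and 5 to 7 in CypD OE minus Control. In Control minus WT, 6 passed, but 3 in the comparison's own 4 libraries and 2 to 5 when 1 library was left out (3 without WT replicate 1, 3 without WT replicate 2, 2 without Control replicate 1, 3 without Control replicate 2). Of the other pathway genes, 35 passed in CypD OE minus Control, and 23 to 35 when 1 library was left out (23 without Control replicate 1). In Control minus WT 25 of 96 passed (26.04%, beside 24.2% of all genes), 16 in the comparison's own 4 libraries (where calls over all genes went from 3269 to 1981) and 15 to 24 when 1 library was left out (15 without Control replicate 1). Neighbouring pairs past the threshold numbered 11 to 17 against 15. Where a lone library stood for a group, it was assumed to vary like the others. Calls over all genes also fell in each fit without 1 library, in all 3 comparisons. Replicate numbers come from the library names and did not pair the samples: deviations of same-numbered libraries correlated at -0.030 to 0.108 across genes. With a replicate block, 10, 6 and 4 members passed in the comparisons in that order, against 10, 7 and 6. Calls over all genes were then 6285, 4735 and 2886, against 6552, 5057 and 3269. The cause of these differences was not tested. The depth limits *Hilpda* most, with approximately 140 to 410 fragments per library, followed by *Pnpla2* (330 to 640) and *Cpt1a* (340 to 1100).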
